A study of Homo sapiens with 6 samples.

Results

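The 500 strongest clusters of distal open chromatin in naive embryonic stem (nES) cells were examined for their response to dimethyl α-ketoglutarate (dm-αKG), a cell-permeable form of the metabolite α-ketoglutarate. The clusters were built from the control peak list alone. Peak intervals on autosomes that lay more than 2 kb from every protein-coding transcript start were joined when no more than 12500 bp apart, which gave 39937 stitched regions from 74827 intervals, and 24544 of these regions held a single interval. The mean control signal of all table peaks inside each region was summed, in CPM (a peak's counts scaled by the library's total counts in peaks), and the 500 regions with the highest sums were kept. They are 1.25% of the stitched regions and hold 8440 of the 171517 peaks in the table (4.92%). The control values thus chose the regions and are also one side of every comparison with dm-αKG below.

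The data are ATAC-seq libraries, in which a transposase cuts accessible DNA, of H9 nES cells, an established human embryonic stem cell line, kept in tt2iLGö medium, which holds cells in a state like that of the epiblast before implantation. Controls (DMSO in the labels, 0 mM dm-αKG in the study's methods, n = 3) were compared with cells given 4 mM dm-αKG for 24 h (n = 3), and both groups were cultured in this medium after feeder cells had been depleted. The libraries held between 13025674 and 26828622 counts in peaks. Pearson correlations of log2(CPM + 1) across peaks were 0.960 to 0.976 within a treatment and 0.933 to 0.944 between treatments. Promoters of 6 of 7 naive marker genes carried a peak (strongest peak 3.62 to 38.0 CPM in control, DPPA3 being the gene without one), and so did those of 4 of 5 fibroblast, 4 of 4 primed, 3 of 3 trophectoderm and 3 of 3 primitive endoderm marker genes (2.24 to 13.4 CPM), so promoter peaks alone did not separate these cell types. A lower count can come from fewer cells with an open site or from a less open site in each cell, and these cannot be told apart in bulk libraries.

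Enhancers are DNA elements away from promoters that bind transcription factors and raise the transcription of genes on the same chromosome. Some lie in dense groups, known as stretch enhancers or super-enhancers, that are often found near genes that define a cell's identity and are usually recognised by histone acetylation or cofactor binding over the whole group. The clusters here were defined by accessibility only, so they are stretch-enhancer-like in their density and length. α-Ketoglutarate is a substrate of enzymes that remove methyl groups from histones and DNA.

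The peaks below had the smallest adjusted p in their clusters, 2 of which fell and 2 of which rose with strong statistical support. Their sequences are examples picked by adjusted p and need not be typical of cluster peaks. Capitals mark the exact words found on either strand for the 11 transcription factor families that were searched. Each sequence is the whole peak, except for the last, where the central 300 bases are given (hg38).
JADE1 region peak, chr4:128678332-128678532, plus strand: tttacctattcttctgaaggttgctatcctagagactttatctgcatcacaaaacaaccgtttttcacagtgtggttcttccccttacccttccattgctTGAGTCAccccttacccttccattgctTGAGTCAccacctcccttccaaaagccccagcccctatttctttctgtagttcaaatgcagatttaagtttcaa
ATF7IP region peak, chr12:14240316-14240553, plus strand: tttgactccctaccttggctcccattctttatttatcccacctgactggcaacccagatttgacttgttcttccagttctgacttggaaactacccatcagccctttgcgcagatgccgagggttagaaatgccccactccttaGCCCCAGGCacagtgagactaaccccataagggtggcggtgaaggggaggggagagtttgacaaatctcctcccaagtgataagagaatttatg
SLC2A1 region peak, chr1:42924540-42924754, plus strand: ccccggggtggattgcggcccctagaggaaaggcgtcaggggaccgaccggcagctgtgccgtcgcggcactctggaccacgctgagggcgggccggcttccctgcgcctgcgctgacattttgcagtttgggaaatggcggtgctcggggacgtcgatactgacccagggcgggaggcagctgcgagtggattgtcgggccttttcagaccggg
RING1 region peak, chr6:33218026-33218325, plus strand: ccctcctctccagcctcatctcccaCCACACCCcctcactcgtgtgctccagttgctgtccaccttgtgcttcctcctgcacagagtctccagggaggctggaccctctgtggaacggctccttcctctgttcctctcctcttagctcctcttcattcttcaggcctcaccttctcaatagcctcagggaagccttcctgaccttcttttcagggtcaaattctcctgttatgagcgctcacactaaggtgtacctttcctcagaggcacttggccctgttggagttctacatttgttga
The JADE1 region peak held the AP-1 word (TGA, any base, TCA) at 2 places, a word that 6.64% of all peaks in the table contained when searched over their whole width. The ATF7IP region peak held 1 TFAP2 word (GCCNNNGGC; 18.9% of all peaks), the RING1 region peak 1 KLF word (CCACACCC; 4.47%) and the SLC2A1 region peak none of the words. A word is a match of letters and does not show that a factor was bound.

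The clusters were long and made of many peaks. They spanned between 1045 and 163097 bp, with a median of 42095 bp, and covered 23.03 Mb in all. A cluster held between 1 and 55 table peaks, with a median of 16, and its strongest peak carried a median of 20.9% of its control signal. Summed control signal lay between 103.0 and 697.5 CPM with a median of 134.7 CPM, against a median of 5.80 CPM over all stitched regions, and the clusters together held 14.0% of the control signal of all stitched regions. Ordering the regions by the 3 dm-αKG libraries instead kept 450 of the 500 in the top 500, and the lowest place that a cluster took in that order was 1436. The control list had 4904 intervals in the clusters, of which 4224 (86.1%) overlapped an interval of the dm-αKG list.

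**Figure D1:**
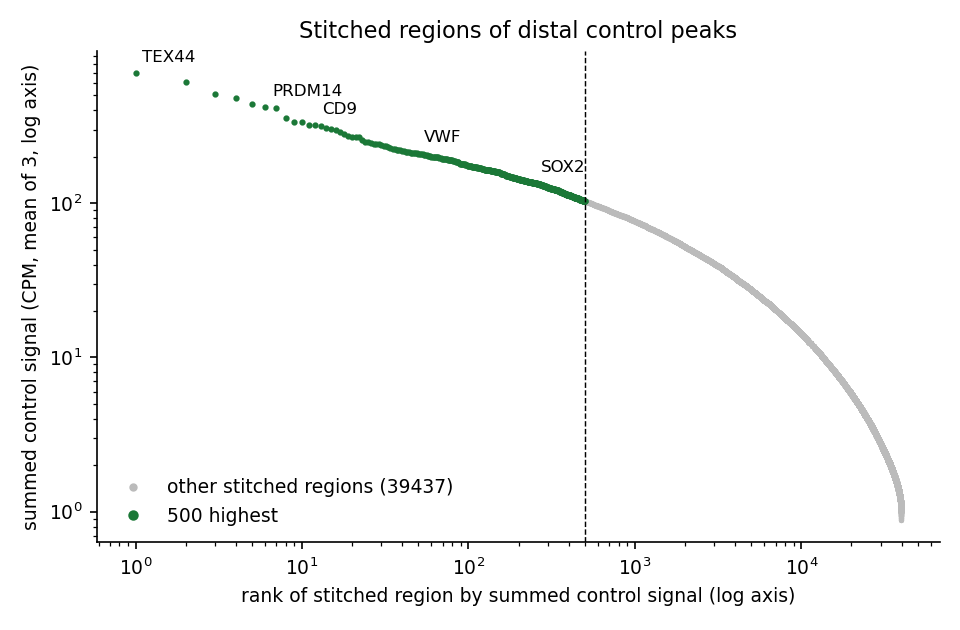
Summed control signal of each stitched region (vertical axis, mean CPM of 3 control libraries) against its rank (horizontal axis), both on log axes, with the 500 highest regions in green and the other 39437 in grey. The curve passes the boundary at rank 500 (dashed line, 103.0 CPM) without a break, and named regions carry their nearest or overlapping gene.

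Signal declined smoothly through the boundary. The last 2 regions inside it had 103.040 and 103.012 CPM in control and lie at RPL13 on chromosome 16 and 5431 bp from a start of SAP18 on chromosome 13. The first 2 outside it had 103.008 and 102.903 CPM and lie 33390 bp from HNRNPLL on chromosome 2 and at SYT7 on chromosome 11. One member was not a cluster at all. At rank 412, a single interval of 1045 bp in an intron of SERTAD2 (chr2:64750663-64751707) held 1 merged table peak with 115.7, 108.8 and 111.5 CPM in control and 116.9, 127.7 and 123.1 CPM with dm-αKG.

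Distal intervals seeded the clusters, but many clusters also enclosed promoters. A protein-coding transcript start lay inside 267 of the 500 clusters, 128 overlapped no protein-coding gene, and 22 lay more than 100 kb from any protein-coding start. Peaks within 2 kb of such a start, called promoter-side peaks here, numbered 1026 of the 8440, and the other 7414 were distal. Of the distal peaks, 15.9% lay within 1 kb of a transcript start of any gene class. In 29 clusters, distal peaks gave less than 50% of the control signal. Chromosome 1 held the most clusters, 59, and on chromosome 19 the clusters made up the largest share of the chromosome's stitched regions, 37 of 1201 (3.08%).

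The clusters took up a smaller part of each library with dm-αKG. They held 7.56%, 7.64% and 7.61% of the counts in peaks in the controls and 7.27%, 7.26% and 7.24% with dm-αKG, and the treatments did not overlap. The means were 7.60% ± 0.043 (SD, n = 3) and 7.26% ± 0.017 (SD, n = 3). The other stitched regions together went from 46.8% ± 0.14 to 44.4% ± 0.76 (SD, n = 3 each), while all promoter-side peaks of the table went from 45.0% ± 0.16 to 47.4% ± 0.85. These shares sum to nearly the whole library, so they do not move independently of each other, and since control values chose the clusters, no test was made of them.

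Counts summed over each cluster were compared by edgeR's quasi-likelihood test, fitted on all 39937 stitched regions, with a region called at an adjusted p below 0.01. With dm-αKG, 182 of the 500 clusters were lower (36.4%) and 31 were higher (6.20%), where 13.7% of all stitched regions were called lower and 3.39% higher. The regions ranked 501 to 1000 had 178 lower (35.6%) and 30 higher (6.00%). The changes were small. The median log2 fold change of the clusters was -0.085, against -0.081 over all stitched regions and -0.083 over ranks 501 to 1000. Fold changes were estimated more closely in the clusters, with a median standard error of 0.042 against 0.16 over all stitched regions. Only 1 cluster passed a 2-fold change, 4 of those called lower fell more than 1.5-fold, and the called clusters had median log2 fold changes of -0.23 (lower) and 0.16 (higher).

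Without a model, all dm-αKG libraries lay below all controls in 228 clusters (45.6%, against 25.2% of all stitched regions) and above them in 81 (16.2%, against 12.9%). Lower clusters were spread over the ranking, whereas higher ones became fewer toward its end. From rank 1 to 500 in steps of 100, the lower clusters numbered 34, 47, 33, 37 and 31. The higher clusters numbered 10, 8, 6, 4 and 3.

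How the regions were chosen moved these counts. When ranked on the dm-αKG libraries, 144 of the 500 highest regions were lower and 47 higher, with a median log2 fold change of -0.045. When ranked on all 6 libraries, 161 were lower and 39 higher, with a median of -0.060. When 2 controls chose the regions and only the third was compared with dm-αKG, both the choice and the test changed, and 490 to 493 of the 500 regions were the same. In these fits the control arm was a single library, so the spread came from the dm-αKG libraries alone and the control was assumed to vary like them. Between 75 and 92 of the chosen regions were then lower and between 4 and 8 higher, with median log2 fold changes of -0.066, -0.080 and -0.081. Calls were also fewer over all stitched regions, where between 3.53% and 4.46% were lower, so the smaller counts cannot be assigned to the choice of regions. The number of higher clusters also rested on single libraries, with 18 called without control 1 and 14 without dm-αKG 2.

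**Figure D2:**
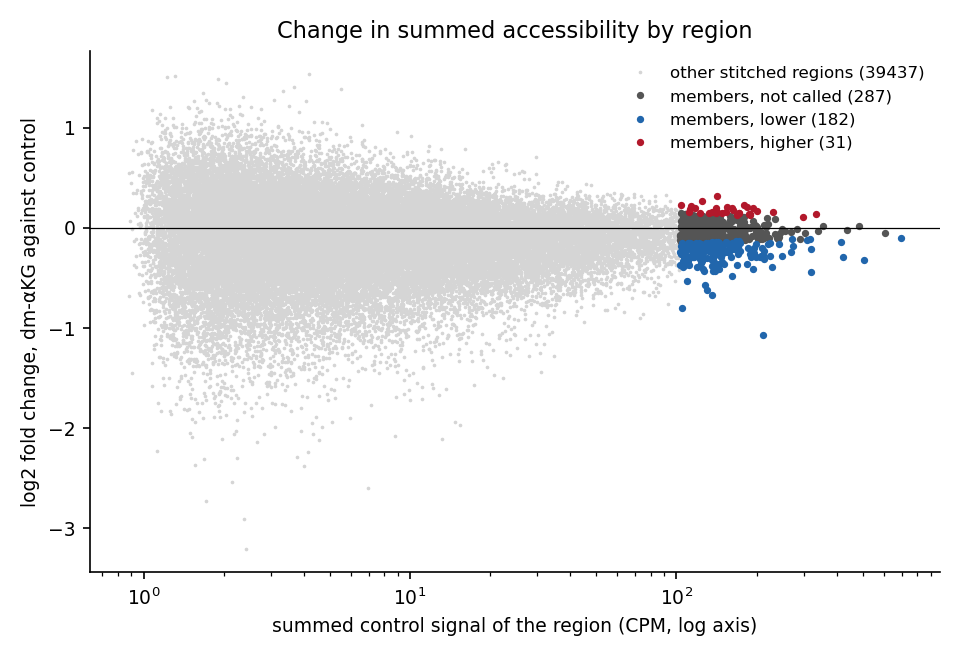
Log2 fold change of summed counts with dm-αKG against control (vertical axis) by summed control signal in CPM (horizontal log axis) for all stitched regions in grey and the 500 clusters coloured by call. The spread of fold changes narrows toward high signal, and the 182 lower clusters outnumber the 31 higher ones.

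The cluster that fell most lies 7673 bp from VWF, the gene of von Willebrand factor, a clotting protein (chr12:6132343-6162015, rank 49). Its summed signal was 209.2, 215.1 and 210.8 CPM in control and 99.6, 98.4 and 109.6 CPM with dm-αKG, so the treatments stood far apart. This was a log2 fold change of -1.07 ± 0.041 (SE, edgeR adjusted p = 1.07e-36), and 9 of its 16 peaks were called less accessible at an adjusted p below 0.01 and more than 2-fold. Next to it on chromosome 12, the cluster over CD9, a tetraspanin of the cell surface (chr12:6179015-6220355, rank 12), went from 313.7, 314.5 and 328.9 CPM to 237.6, 235.1 and 239.8 CPM, a log2 fold change of -0.44 ± 0.033 (SE, edgeR adjusted p = 8.57e-19).

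Another 3 clusters complete the 5 with the smallest adjusted p among those that fell. Near JADE1, which encodes a subunit of a histone acetyltransferase complex, a cluster 70184 bp from the gene (chr4:128678020-128739516, rank 476) had 100.9, 109.8 and 103.8 CPM in control and 60.8, 58.7 and 63.6 CPM with dm-αKG (log2 fold change -0.80). All 14 of its peaks had a log2 fold change below 0, and 6 were called less accessible. The cluster 97576 bp from ATF7IP, a partner of the histone methyltransferase SETDB1 (chr12:14239354-14268106, rank 239), went from 141.4, 135.2 and 132.8 CPM to 81.5, 85.6 and 94.8 CPM (log2 fold change -0.67). Within MTA3, which encodes a subunit of the NuRD chromatin remodelling complex (chr2:42513285-42562824, rank 282), the values were 126.3, 138.4 and 125.3 CPM and then 86.3, 83.0 and 87.8 CPM (log2 fold change -0.62). In each of these 3 clusters every dm-αKG value lay below every control value, as the rule for naming them required.

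The 5 clusters that rose with the smallest adjusted p changed less than the 5 that fell. The one with the smallest adjusted p covers SLC2A1, the gene of the glucose transporter GLUT1 (chr1:42913388-42963177, rank 208). It had 144.2, 137.1 and 143.3 CPM in control and 184.0, 178.1 and 172.7 CPM with dm-αKG (log2 fold change 0.32 ± 0.039, SE, edgeR adjusted p = 3.79e-10). Its 19 peaks did not move as a block, since 6 were up and 1 was down at an adjusted p below 0.05, and the one that went down had a log2 fold change of -1.20. A cluster 4569 bp from RING1, which encodes a ubiquitin ligase of the Polycomb complex PRC1 (chr6:33213069-33249677, rank 314), went from 124.4, 122.9 and 125.8 CPM to 149.4, 156.9 and 146.7 CPM (log2 fold change 0.26).

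The remaining 3 of the 5 higher clusters lie at LSM4, TRIM8 and BHLHE40. The cluster over LSM4 and PGPEP1 on chromosome 19 (rank 92), 5492 bp from JUND, which encodes an AP-1 subunit, had 176.4, 189.7 and 173.3 CPM in control and 227.1, 213.6 and 198.0 CPM with dm-αKG (log2 fold change 0.23). At BHLHE40, the gene of a basic helix-loop-helix repressor, signal went from 195.7, 195.3 and 189.6 CPM to 222.1, 229.7 and 222.0 CPM (rank 71, log2 fold change 0.20). At TRIM8, the gene of a ubiquitin ligase, it went from 177.4, 185.7 and 188.7 CPM to 216.4, 215.1 and 211.6 CPM (rank 86, log2 fold change 0.21). This last call was lost when only distal peaks of the cluster were counted (log2 fold change 0.082, adjusted p = 0.157), a setting added after the data had been seen.

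**Figure D3:**
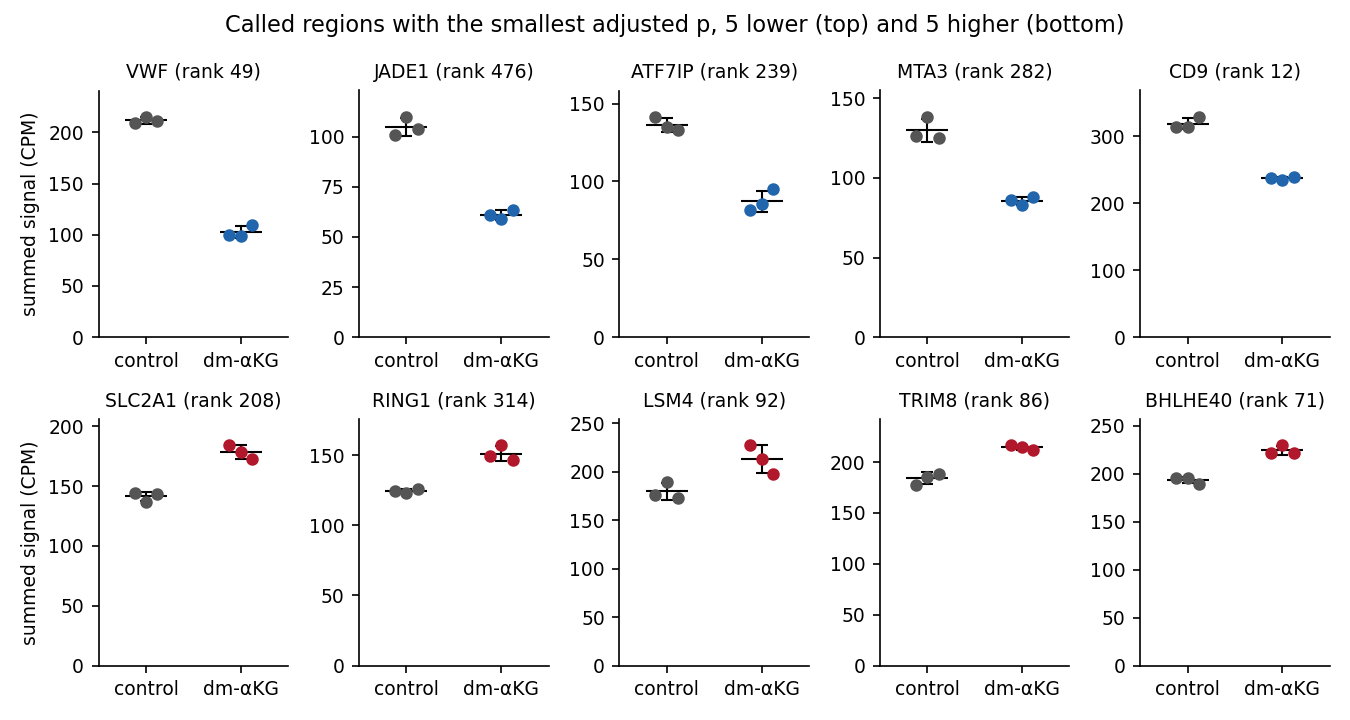
Summed signal in CPM per library (points) with the mean and SD of 3 libraries (black bars) for the 5 lower and 5 higher called clusters with the smallest adjusted p, each named by its nearest or overlapping gene, with axes starting at 0. The VWF cluster lay between 209.2 and 215.1 CPM in the controls and between 98.4 and 109.6 CPM with dm-αKG, and no other panel shows a gap of that size relative to its level.

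Among the 10 clusters with the most control signal, 4 were lower, 1 was higher and 5 were not called. The strongest, a stretch that overlaps no protein-coding gene and lies 2082 bp from TEX44 (chr2:231594946-231687790), held 43 peaks, all distal. It had 697.3, 699.5 and 695.9 CPM in control and 653.6, 668.8 and 652.4 CPM with dm-αKG (log2 fold change -0.099, adjusted p = 0.00194). This call was lost without control 1, control 2 or dm-αKG 1 (adjusted p = 0.0226, 0.0109 and 0.0288).

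The cluster at PRDM14, a transcriptional regulator of pluripotency (rank 6), held the most peaks, 55, and went from 427.0, 420.5 and 419.8 CPM to 346.3, 350.2 and 351.2 CPM (log2 fold change -0.29). At ID1, which encodes an inhibitor of basic helix-loop-helix factors (rank 7), the cluster fell with a log2 fold change of -0.14. The cluster at BCL9L, the gene of a β-catenin coactivator (rank 10), rose from 334.4, 335.9 and 333.0 CPM to 376.6, 380.6 and 359.1 CPM (log2 fold change 0.14, adjusted p = 0.00029), a call lost without dm-αKG 2 (adjusted p = 0.0118). Those at ACTB and FSCN1, RCOR1, IRF2BPL, and at PRR7, GRK6, DBN1 and PDLIM7 were not called, with log2 fold changes between -0.050 and 0.019.

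Single peaks of the clusters were called at an adjusted p below 0.01 and a change of more than 2-fold, in the fit on all 171517 peaks. Of the 8440 peaks, 183 were less accessible (2.17%) and 38 more accessible (0.450%), where 1.96% and 0.782% of all peaks were called. Without the fold threshold, at an adjusted p below 0.05, 1543 went down (18.3%, against 10.5% of all peaks) and 687 went up (8.14%, against 7.43%). All peaks include promoter-side ones, which went down less often. Of the peaks of other stitched regions, 14.1% went down and 5.10% went up. Called losses were almost entirely distal in the clusters (182 of 183) and in the whole table (3164 of 3365). Of the 7414 distal peaks, 182 were less accessible (2.45%), against 2.94% of distal peaks in the other stitched regions, and of the 1026 promoter-side peaks, 1 was less (0.0975%) and 10 were more accessible (0.975%), against 0.386% and 0.468% of all promoter-side peaks. Peaks of the clusters were stronger than those of other stitched regions, with a median of 5.71 against 3.04 CPM in control. Distal peaks were also split at the quartiles of mean signal over all distal peaks of the table. In the 25% with the highest signal, 1.71% of distal cluster peaks and 1.54% of other stitched distal peaks were called less accessible. In the 25% with the lowest they were 3.19% and 3.53%. Without the fold threshold, 25.3% and 22.3% went down in the highest 25%, and 9.08% and 8.49% in the lowest.

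Called losses lay in a minority of the clusters. At least 1 peak called less accessible occurred in 128 clusters, at least 1 called more accessible in 32, both in 10, and neither in 350. The 5 clusters with most such losses held 28 of the 183, led by those near VWF and JADE1. Of the 182 clusters called lower, 104 had no single peak called less accessible, and in 63 at least 1 peak went up at an adjusted p below 0.05. Peaks of one cluster therefore often moved in different directions. In 260 of the 500 clusters at least 1 peak went down and at least 1 went up at this threshold. This count and those of clusters with called peaks can grow with the number of peaks in a region. That number had a median of 16 in the clusters and 2 over all stitched regions, for which the same counts were not made. Of the clusters with more than 1 peak, 10 had every peak below 0 on the log2 scale and 2 had every peak above 0. The SD of peak log2 fold changes within a cluster had a median of 0.36, against 0.42 over all cluster peaks pooled.

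**Figure D4:**
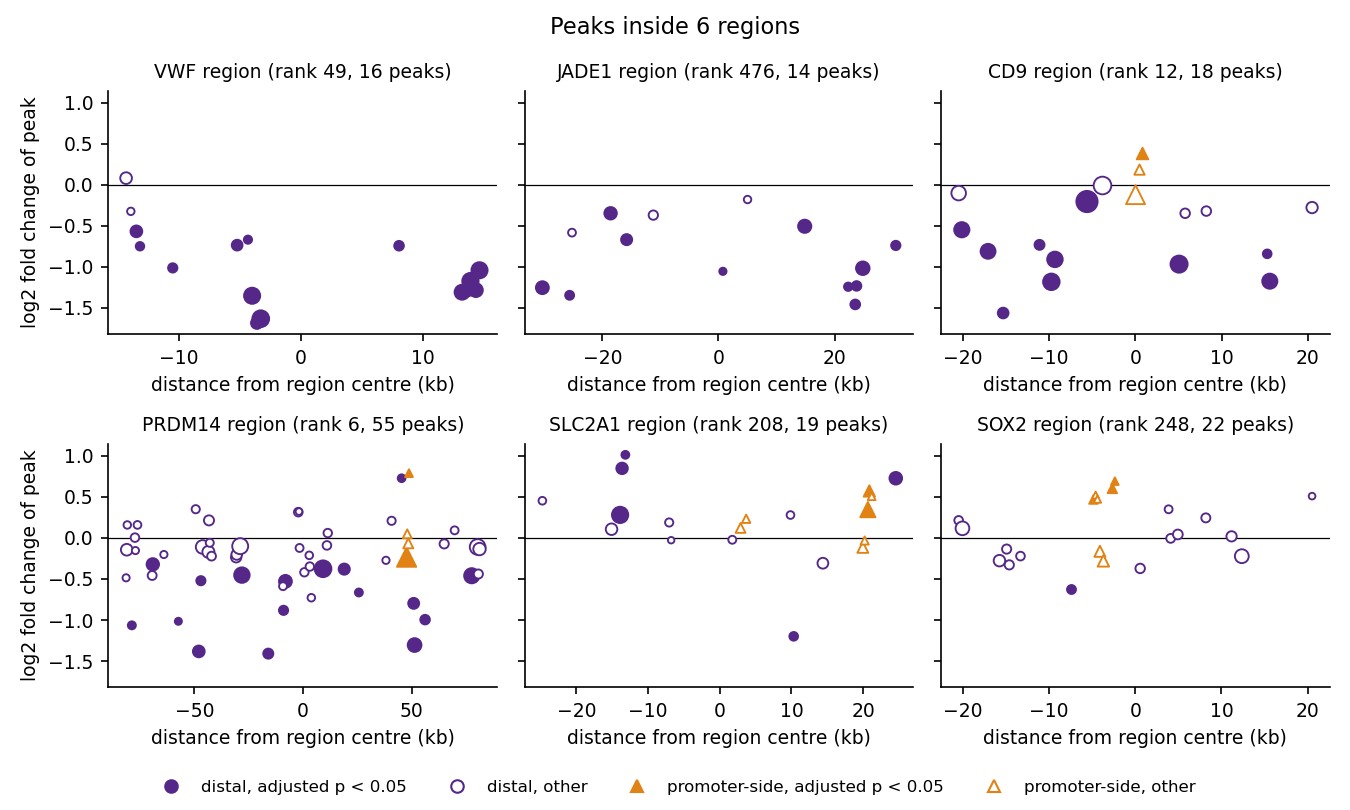
Log2 fold change of each peak with dm-αKG (vertical axis) by distance from the centre of its cluster in kb (horizontal axis) in 6 clusters, with circles for distal and triangles for promoter-side peaks, filled at an adjusted p below 0.05, and area growing with control CPM. In the VWF and JADE1 clusters nearly all peaks lie below 0, in the CD9 cluster 2 of the 3 promoter-side peaks lie above all distal ones and the third among them, and in the SLC2A1 and SOX2 clusters peaks lie on both sides of 0.

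The CD9 cluster shows the mixture. Its 15 distal peaks had a median log2 fold change of -0.73, and its 3 promoter-side peaks a median of 0.18. The strongest of the 3 was at -0.12, within the range of the distal peaks. Such a difference was common. In the 254 clusters with both kinds of peak, the median over distal peaks lay below that over promoter-side peaks in 191, and the medians across clusters were -0.078 and 0.10. The same contrast held across the table, where the median log2 fold change was -0.051 for distal and 0.096 for promoter-side peaks, so it is not particular to the clusters.

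Base composition moved with the change. Clusters called lower had a median GC content of 53.2% (median over clusters of the median over their peaks), those not called 58.0% and those called higher 61.5%. Across the 500 clusters, Pearson's r between GC content and log2 fold change was 0.463, given as a description because all points come from the same 6 libraries. A protein-coding start lay inside 41.8% of lower, 58.5% of uncalled and 74.2% of higher clusters. Chromosome 19 held 1 of the 182 lower clusters, 25 of the 287 uncalled and 11 of the 31 higher ones. Among distal peaks with a GC content of 40 to 50%, the median log2 fold change was -0.20 in the clusters and -0.15 in other stitched regions, and at 60% or more it was 0.030 and 0.0077. The part of GC content in the calls was not tested.

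**Figure D5:**
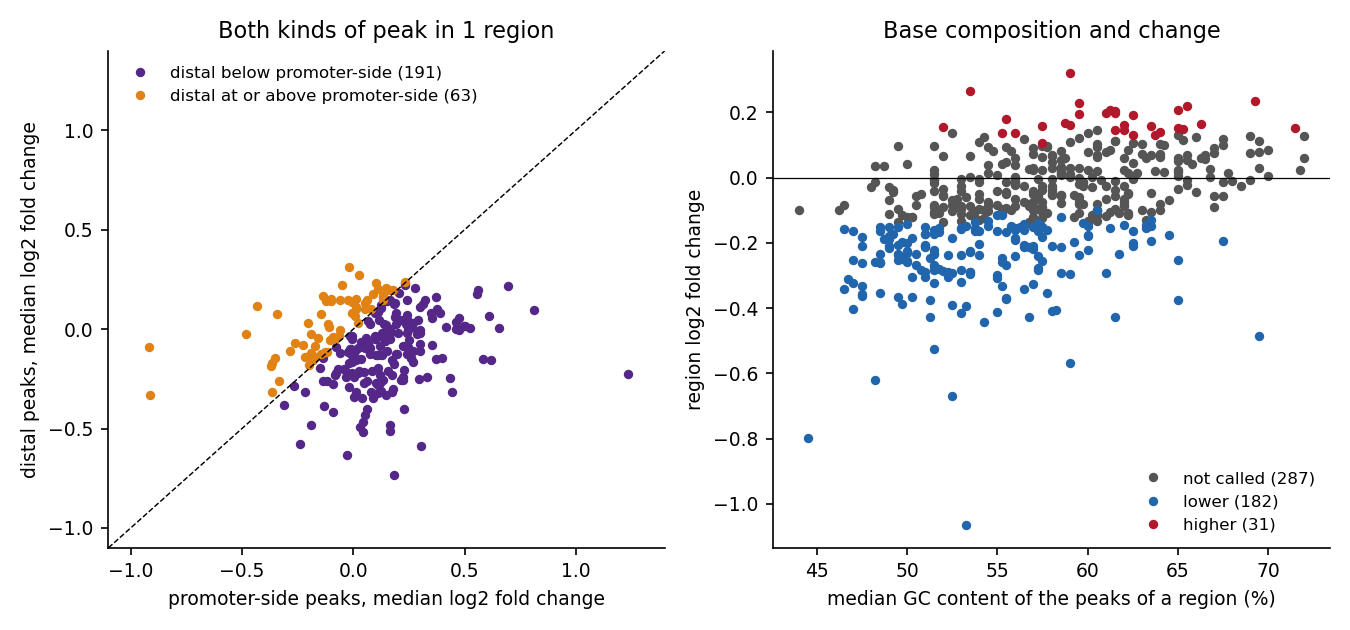
Left, median log2 fold change of distal peaks (vertical axis) against that of promoter-side peaks (horizontal axis) in 254 clusters that have both, with 191 below the dashed line of equality. Right, log2 fold change of each of the 500 clusters (vertical axis) by the median GC content of its peaks in % (horizontal axis), coloured by call, with lower clusters at a median of 53.2% and higher ones at 61.5%.

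Clusters near the genes of 12 lists are given here beside the 36.4% lower and 6.20% higher among all 500 clusters. Of 13 genes of naive pluripotency, 7 had a cluster within 100 kb of a start, as did 2031 of all 18773 autosomal protein-coding genes (10.8%). Clusters near 4 of these genes were lower and none was higher. Near FGF4, a growth factor gene, signal went from 136.5, 139.0 and 139.2 CPM to 112.7, 106.6 and 111.1 CPM (log2 fold change -0.34), and all 10 peaks of the cluster lay below 0. Beside TFAP2C, which encodes a transcription factor of naive and trophoblast cells, it went from 207.5, 224.2 and 209.4 CPM to 186.6, 185.1 and 182.8 CPM (log2 fold change -0.23). The changes near ZFP42, the gene of the pluripotency marker REX1, and KLF5, a Krüppel-like factor, were both -0.16.

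The calls near KLF5 and ZFP42 were lost without control 1 (adjusted p = 0.0106 and 0.0168), control 2 (0.0456 and 0.0101) or dm-αKG 1 (0.0713 and 0.0143). Clusters near DPPA3, DPPA5 and DNMT3L were not called (log2 fold changes -0.099, -0.088 and -0.026). The first lies 87314 bp from DPPA3 and covers the start of SLC2A14. The second lies 26935 bp from DPPA5 and covers the start of DDX43. At DNMT3L, a cofactor of DNA methylation, promoter-side and distal peaks differed in direction, and counting only the distal ones, a setting added later, gave -0.27 (adjusted p = 1.95e-05).

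Of 14 genes of the core pluripotency network, 5 had a cluster within 100 kb, 3 of them lower. Besides PRDM14, FOXD3, a forkhead repressor, had a cluster that went from 136.1, 136.8 and 133.8 CPM to 108.1, 105.7 and 115.2 CPM (log2 fold change -0.32). Near MYCN, a MYC family gene, the log2 fold change was -0.15 (adjusted p = 0.00842). It passed the threshold narrowly, and when single libraries were left out it kept its call only without dm-αKG 3, the adjusted p being 0.0697 without control 1, 0.0238 without control 2, 0.0189 without control 3, 0.068 without dm-αKG 1 and 0.0728 without dm-αKG 2. The SOX2 cluster had 136.0, 133.4 and 135.5 CPM in control and 134.1, 135.7 and 140.1 CPM with dm-αKG, so the treatments overlapped (log2 fold change 0.00038). The NANOG cluster, which is also the one nearest to DPPA3, had 127.6, 124.2 and 125.8 CPM and then 117.0, 122.0 and 117.8 CPM, without overlap but not past the threshold (adjusted p = 0.0703). POU5F1, SALL4, LIN28A and the other 6 genes of the list had no cluster within 100 kb.

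In the NODAL and SMAD pathway, which keeps pluripotent cells undifferentiated, 5 of 10 genes lay within 100 kb of 4 clusters, 2 of which were lower. The cluster 80743 bp from NODAL, the ligand, which covers the start of PALD1, went from 115.3, 119.5 and 120.0 CPM to 101.6, 96.8 and 105.2 CPM (log2 fold change -0.24). The one nearest to the inhibitors LEFTY1 and LEFTY2 went from 114.9, 115.4 and 114.2 CPM to 96.9, 99.9 and 104.6 CPM (log2 fold change -0.21). Clusters near SMAD7, an inhibitor of the pathway, and ACVR1B, a receptor, were not called (-0.080 and 0.085). The first lies 62279 bp from SMAD7 and overlaps DYM. The second lies 61232 bp from ACVR1B and covers the start of NR4A1.

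Hippo signalling, which acts through TEAD transcription factors, had 3 of 10 genes near a cluster. Those at TEAD3 (log2 fold change -0.25) and AMOTL2, the gene of an angiomotin that restrains YAP (-0.30), were lower, and that at LATS2, the gene of a pathway kinase, was not called (-0.053). Of 5 genes of LIF and STAT3 signalling, IL6ST, which encodes the receptor subunit gp130, had a lower cluster (-0.18). That cluster lies 8150 bp from IL6ST and covers the start of ANKRD55. Its call was lost without control 1 (adjusted p = 0.0146) or dm-αKG 1 (0.0116). SOCS3, a feedback inhibitor, had a cluster that was not called (-0.067).

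For the remaining lists, 10.8% of all autosomal protein-coding genes is the share with a cluster within 100 kb. That share was 16.7% of trophectoderm and trophoblast genes, 16.7% of primitive streak and mesoderm genes and 25% of JUN and FOS genes. Of 12 trophectoderm and trophoblast genes, TEAD4 had an uncalled cluster (-0.060). The cluster 62672 bp from TFAP2A, which covers the start of GCNT2, was lower (-0.16) in the main test. That call was lost without control 1, control 3, dm-αKG 1 or dm-αKG 2 (adjusted p = 0.0428, 0.0328, 0.0811 and 0.0109). Of 6 genes of primitive streak and mesoderm, MIXL1 had an uncalled cluster (-0.058), 87330 bp away and nearer to H3-3A. Of 8 JUN and FOS genes, JUND had the higher cluster described above and FOSB an uncalled one (-0.014). The latter lies 44237 bp from FOSB and covers the start of VASP. None of the 10 primed pluripotency, 9 primitive endoderm, 8 histone acetylation and 6 fibroblast genes had a cluster within 100 kb. These lists are short, so the absence of a cluster does not show that such genes have fewer than other genes. The nearest gene need not be the gene that a cluster regulates, and accessibility does not measure expression.

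Words of transcription factor families were counted on either strand within the central 200 bp of every peak. The words were ATGCAAAT for OCT factors, CCATTGT for SOX factors, CCACACCC for KLF factors, CATTCCA for TEAD factors, GCCNNNGGC for TFAP2 factors, TGA, any base and TCA for AP-1, TGACNNNGC for NRF2, TGTTTAC for FOX factors, the word AGATAAG for the GATA family, TCAAGGTCA for NR5A2 and ESRRB, and CAGGGGGCG for CTCF. The AP-1 and NRF2 words can overlap. The OCT word occurred in 2.24% of distal cluster peaks and in 3.00% of distal peaks of other stitched regions, the SOX word in 2.51% and 3.44%, and the FOX word in 2.63% and 3.40%. The TFAP2 word occurred in 16.7% and 14.6%, the KLF word in 6.06% and 4.94%, and the NRF2 word in 10.7% and 9.45%. For the other words, both shares were 5.95% and 5.99% (TEAD), 7.81% and 7.39% (AP-1), 2.23% and 2.54% (GATA), 1.16% and 1.19% (CTCF), and 0.297% and 0.336% (NR5A2 and ESRRB). Over all peaks of the table, promoter-side ones included, the OCT word occurred in 3915 of 171517, close to its share in the distal cluster peaks, and the shares were 2.70% for SOX, 2.85% for FOX, 17.9% for TFAP2, 4.26% for KLF and 9.57% for NRF2. The GC content of the 2 distal sets also differed, with medians of 55.5% and 52.5%, and its part in these shares was not tested. No test was made of the shares.

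Within the clusters, 9 of the 183 peaks called less accessible held the OCT word (4.92%) and 14 the SOX word (7.65%). The TEAD word occurred in 15 of them (8.20%) and the TFAP2 word in 9 (4.92%). In the 8219 cluster peaks that were not called, the shares were 2.04% (OCT), 181 of 8219 (SOX), 5.55% (TEAD) and 18.5% (TFAP2). For the other words, shares in called losses and uncalled peaks were 3.83% and 5.86% (KLF), 4.92% and 7.53% (AP-1), and 9.29% and 10.7% (NRF2). They were 3.28% and 2.40% (FOX), 2.19% and 2.04% (GATA), 0% and 1.31% (CTCF), and 0% and 0.292% (NR5A2 and ESRRB). The reversed words occurred in 0% of called losses and 0.0730% of uncalled peaks (OCT), and in 2.73% and 1.42% (SOX). For TEAD they were 0.546% and 0.913%, and for TFAP2 1.09% and 6.50%. The called losses had a median GC content of 50.5% and the uncalled peaks 56.5%. All but 1 of the losses were distal, whereas the uncalled peaks included promoter-side ones. Promoter-side cluster peaks held the OCT word in 1.17%, SOX in 0.877%, TEAD in 3.02% and TFAP2 in 29.2%. The part of this difference in the shares was not tested. Distal peaks with a SOX word had a median log2 fold change of -0.23 in the clusters and -0.27 in other stitched regions, and those with an OCT word -0.21 and -0.25. For the TEAD word the medians were -0.26 and -0.20, and for the AP-1 word -0.0057 and -0.027. Distal cluster peaks without these words had medians between -0.096 and -0.080.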

How the data were processed

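The 6 ATAC-seq libraries were grouped by treatment as in the labels. The authors aligned paired-end reads to hg38 with Bowtie 2 in the ENCODE pipeline, run once per treatment, called peaks with MACS2, kept reproducible ones, cut both lists to 200 bp around summits, merged them, and deposited raw counts of reads per merged peak and library (bedtools 2.28.0), without normalization. Merging makes strong sites wider, and counts in peaks depend on which sites passed the peak caller. Scores, fold enrichments and p-values in the deposited peak lists were not used.

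Counts of all peaks, or sums over each stitched region, were tested with edgeR 4.0.16 (quasi-likelihood, TMM, library sizes of the whole table, Benjamini-Hochberg over all features) in R 4.3.3. DESeq2 1.42.0 was an alternative. The edgeR fits were tested on simulated data. CPM values use total counts in peaks, whereas fold changes include TMM factors (0.9914 to 1.0142). The study calls the libraries biological replicates and states that the ATAC-seq was done once. The p-values therefore measure the spread between libraries of a single experiment, not between repeated experiments. An exact permutation test of 3 against 3 cannot give a p below 0.1. Genes and transcript starts were from GENCODE 44, and sequences and GC content from hg38 with Python 3.11.15.

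Regions named are the 10 with the highest control sum, the 5 lower and 5 higher with the smallest adjusted p and no overlap between treatments, the nearest one within 100 kb of each gene of 12 lists (111 genes), and ranks 499 to 502. Results of 2 of these regions and the sequence of 1 peak are not reported here. The members, lists and words were chosen with earlier results of these data known.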

Additional observations from a re-analysis of the deposited data

How the results depend on the processing

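The share of clusters called lower stayed within 1.5 times its value with DESeq2, RLE factors, total counts, a minimum of 10 counts in every library, ranking on dm-αKG or on all 6 libraries, other stitching distances, another definition of distal, and 250 or 1000 regions. Leaving out 1 library gave 27.8% to 38.4% lower and 2.80% to 8.80% higher clusters, and 2.00% to 2.49% less and 0.344% to 0.581% more accessible peaks. Ranking on 2 controls and testing the third, which leaves fewer libraries, gave 16.4%, 18.4% and 15.0% lower clusters, 0.800%, 0.800% and 1.60% higher clusters, 1.35% (control 1) and 1.37% (control 3) less accessible peaks, and 0.213%, 0.201% and 0.272% more accessible peaks. Higher clusters were 9.40% when ranked on dm-αKG, 3.60% when ranked on distal peaks only and 11.0% with stitching at 25 kb, and more accessible peaks were 0.0974% with stitching at 5 kb; the cause was not tested. At an adjusted p below 0.05 and any fold, 18.3% of peaks were less and 8.14% more accessible. Past 2-fold, 0.200% of clusters were lower and 0 were higher (31 higher at any fold by edgeR). Ranked on distal peaks only, the regions held 6.79% of control and 6.35% of dm-αKG counts. Searching whole peaks left the shares of all 11 words in distal cluster peaks within their 95% Wilson intervals. Other sets were not compared with an interval, and there TFAP2 went from 14.6% to 15.3% in distal peaks of other stitched regions and from 17.9% to 18.9% in all peaks.

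Some uncalled clusters near 0 changed sign. Leaving out 1 library gave between -0.011 and 0.043 at RCOR1 (rank 4), -0.045 and 0.0018 at PRR7 (rank 9), -0.020 and 0.0033 near FOSB, -0.053 and 0.00011 at DNMT3L, and -0.021 and 0.025 at SOX2. Near FOSB, total counts gave 0.0022. SOX2 was at -0.0081 with the count minimum and at -0.068 with distal peaks only, where RCOR1 was at -0.0031. The calls near TFAP2A and MYCN were lost with DESeq2 (adjusted p = 0.0137 and 0.0223) and that near MYCN by total counts (0.0183). With distal peaks only, that near TFAP2A was lost too (0.0162).

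With the replicate number as a block, 37.8% of clusters were lower, 6.80% higher, 2.19% of peaks less and 0.415% more accessible, and no named call changed. The labels do not say that numbers pair libraries, and deviations of same-numbered libraries correlated between -0.016 and 0.021.

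Limits: depth sets how small a change can be called, so a larger share of calls in regions with more counts does not show a larger change. Peaks in repeats or duplicated segments depend on how reads with several matches were placed. Distances are to the nearest start, without contact data.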
